A study of Mus musculus with 8 samples.

Results

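The 8 genes described here carry out glutamate uptake, its conversion and its sensing in astrocytes, and they were chosen by name: SLC1A2, SLC1A3, SLC1A4, GLUL, GLUD1, GRM3, GRM5 and SLC38A3. All 8 were found among the 13937 genes of the count table, and all 8 were among the 13509 genes tested. Gene symbols are written in capitals, as in the deposited table, and the genes are those of the mouse. Primary astrocytes came from the brains of C57BL/6 pups, either wild type (WT) or RGC-32 KO (called KO in what follows), that is lacking RGC-32, a protein encoded by Rgcc that acts in cell cycle control and in TGF-β signalling. Pups were 1 day old at purification. The cells of all groups were grown in serum, shaken to remove precursors and neurons, starved of serum overnight, and then kept without stimulation or with 10 ng/ml of TGF-β for 24 h. Bulk RNA was sequenced from 4 groups (WT control, WT TGF-β, KO control and KO TGF-β) with 2 libraries each, labelled as biological replicates. Whether the 2 libraries of a group came from separate litters is not stated in the sources used here, so the p-values measure the spread between these libraries. The cells are neonatal cultures enriched for astrocytes, and markers of other cell types were present, as described below.

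Astrocytes take glutamate out of the synaptic cleft through the sodium-driven carriers SLC1A2 (GLT-1, EAAT2) and SLC1A3 (GLAST, EAAT1). Inside the cell, glutamine synthetase (GLUL) joins glutamate with ammonia to form glutamine, which leaves through carriers such as SLC38A3 (SNAT3) and is returned to neurons, while glutamate dehydrogenase (GLUD1) feeds glutamate into the citric acid cycle. SLC1A4 (ASCT1) belongs to the same carrier family but exchanges neutral amino acids such as serine and alanine, and GRM3 and GRM5 are the metabotropic receptors through which astrocytes sense glutamate.

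Total counts on genes ran from 14920561 to 18956038 per library. Rgcc, the targeted gene, had 80 and 94 counts in WT control, 215 and 362 in WT TGF-β, 61 and 28 in KO control, and 64 and 26 in KO TGF-β. The lowest WT library thus exceeded the highest KO library, although Rgcc reads remained in all KO libraries. All 10 listed astrocyte markers had a mean above 1 CPM (a count scaled to the normalized library total) in at least 1 group. So did 11 of 11 microglia or macrophage markers and 8 of 10 meningeal fibroblast markers. GJB6 of the astrocyte list was below 1 CPM in every TGF-β library. Of 10 neuronal markers 5 were in the table, and RBFOX3, SNAP25, SLC17A7, SLC17A6 and SLC32A1 were not.

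Levels of different genes were compared per transcript length, in FPKM, fragments scaled by Cufflinks to transcript length and library size. In WT control astrocytes GLUL was the highest of the 8 at a mean of 137 FPKM (n = 2), followed by SLC1A3 at 114 and GLUD1 at 107. SLC38A3 followed at 27.0 FPKM, SLC1A4 at 17.4 and SLC1A2 at 11.4. The receptors were far lower, with GRM3 at 0.329 FPKM and GRM5 at 0.0660. SLC1A3 and GLUD1 overlapped between their libraries (109 to 119 and 103 to 111 FPKM), whereas every other neighbouring pair in this order was separated. In KO control SLC1A3 and GLUL both stood at 146 FPKM and overlapped, and the order of the other 6 genes was that of WT control.

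With TGF-β the order changed in both genotypes. In WT TGF-β GLUD1 was at 86.4 FPKM, GLUL at 80.9 and SLC1A3 at 80.2, and the ranges of these neighbours overlapped. In KO TGF-β SLC1A3 at 95.7 FPKM and GLUD1 at 91.7 overlapped, and GLUL at 82.4 lay below both in each library. SLC1A4 moved above SLC38A3, at 35.4 against 25.2 FPKM in WT and 36.4 against 25.0 in KO, with no overlap between libraries. The FPKM ratio of GLUL to GLUD1 lay between 1.22 and 1.33 in the 4 control libraries and between 0.885 and 0.938 in the 4 TGF-β libraries. The mRNA of SLC1A3 exceeded that of SLC1A2 in every library, by 9.02 to 13.3 times in FPKM.

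**Figure D1:**
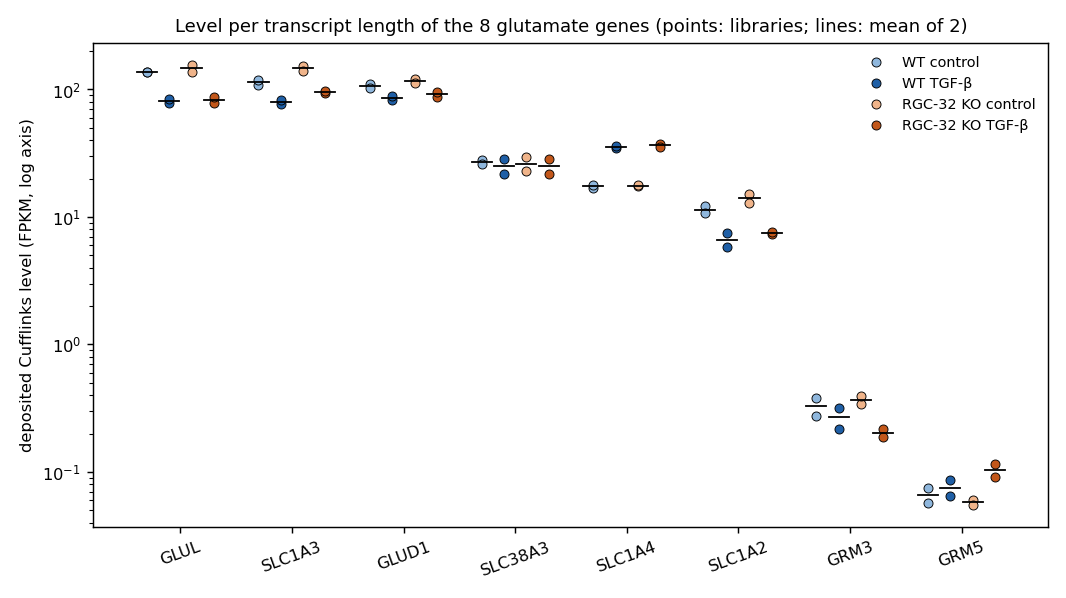
Deposited level per transcript length (FPKM, log axis) of the 8 glutamate genes in the 8 libraries, with points for libraries and lines for the mean of 2. GLUL, SLC1A3 and GLUD1 sit near 100 FPKM, SLC38A3, SLC1A4 and SLC1A2 between 5.81 and 37.5, and GRM3 and GRM5 at 0.393 or below.

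The first question was how TGF-β changed these genes in WT astrocytes. A gene was called past the threshold (up-regulated or down-regulated) when its log2 fold change was 0.6 or more in size with an adjusted p under 0.05. SLC1A4 rose, and SLC1A2 and GLUL fell, so 1 of the 8 genes was up-regulated and 2 were down-regulated. Over all genes tested 7.72% were up-regulated and 5.65% were down-regulated. SLC1A3 fell by less than the fold threshold, which made 3 genes with a lower level at an adjusted p under 0.05 regardless of fold, against 14.3% of all genes. The median log2 fold change of the 8 genes was -0.13, beside -0.005 over all genes tested.

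The question was then asked of KO astrocytes, and the same 3 genes passed the threshold in the same directions. Here 6.61% of all genes were up-regulated and 4.93% were down-regulated, and 11.8% fell at an adjusted p under 0.05 regardless of fold, again with 3 of the 8 genes among them. The median log2 fold change of the 8 was -0.34, beside 0.003 over all genes. This median was moved by GRM3, a gene of low counts, which stood at -0.05 in WT and -0.59 in KO (adjusted p = 0.374 in KO). The medians of WT and KO therefore do not show a stronger fall in KO. The comparisons of the genotypes follow after the single genes.

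**Figure D2:**
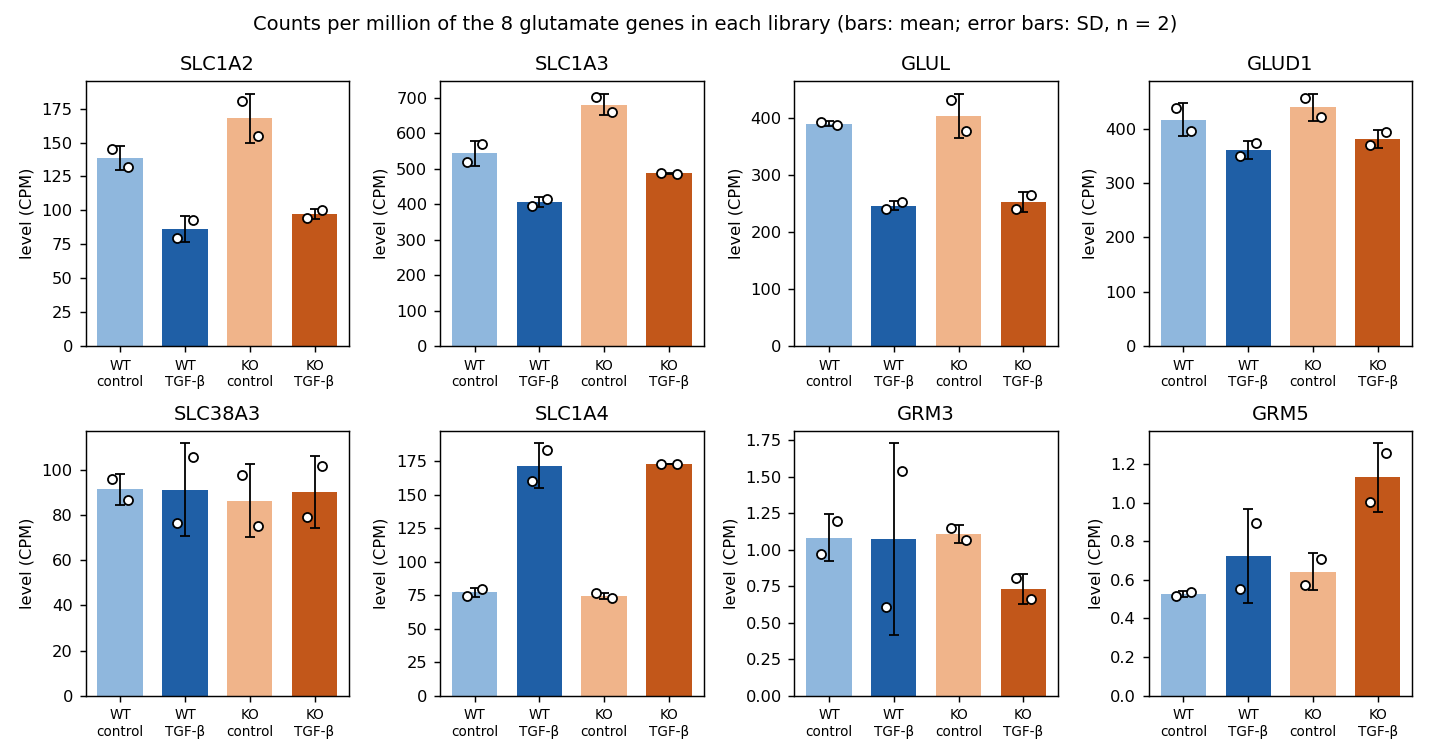
Level of each of the 8 genes in CPM by group, with points for libraries, bars for the mean and error bars for the SD (n = 2). SLC1A2, SLC1A3 and GLUL are lower in every TGF-β library than in every control library of the same genotype, SLC1A4 is higher in every TGF-β library, and the groups of SLC38A3 overlap.

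SLC1A2 is the carrier that clears most glutamate in the adult forebrain. Its gene lies on the forward strand of chromosome 2 (chr2:102658659-102790784, GRCm38, GENCODE release M21). It stood at 145 and 132 CPM in WT control and at 79.6 and 93.0 in WT TGF-β, and at 181 and 155 CPM in KO control and 94.7 and 100 in KO TGF-β. Both TGF-β libraries were below both control libraries in each genotype. The log2 fold change was -0.68 in WT (SE 0.10, adjusted p = 0.00225), to 0.623 times the control, and -0.79 in KO (SE 0.10, adjusted p = 0.00154), to 0.58 times. Without WT TGF-β replicate 1 the value in WT was -0.57 and no longer past the fold threshold (adjusted p = 0.0143, over all alternatives 4.17e-07 to 1). A GENCODE antisense gene on the opposite strand, GM13872, had 17 to 48 counts per library, and since the libraries carry no strand its reads and those of SLC1A2 cannot be told apart where they overlap.

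SLC1A3, the carrier of radial glia and of immature and cerebellar astrocytes, was measured with 6503 to 11139 counts per library (chr15:8634124-8710764, reverse strand). It stood at 519 and 569 CPM in WT control, 396 and 416 in WT TGF-β, 703 and 659 in KO control and 488 and 486 in KO TGF-β. KO control was highest and WT TGF-β lowest, and none of the 4 groups overlapped. TGF-β changed it by -0.42 on the log2 scale in WT (SE 0.07, adjusted p = 0.00399) and by -0.48 in KO (SE 0.07, adjusted p = 0.00269). Neither reached the fold threshold of 0.6.

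GLUL, glutamine synthetase, is found in the brain mainly in astrocytes (chr1:153899944-153909723, forward strand). It stood at 393 and 388 CPM in WT control and 241 and 252 in WT TGF-β. In KO control it stood at 432 and 377 CPM, and in KO TGF-β at 241 and 266. The TGF-β libraries of both genotypes lay in 1 narrow range below all 4 control libraries. The log2 fold change was -0.66 in WT (SE 0.08, adjusted p = 0.00109), to 0.631 times the control, and -0.67 in KO (SE 0.08, adjusted p = 0.00123), to 0.627 times. Without KO control replicate 1 the second value was -0.59 and under the fold threshold (adjusted p = 0.00624, over all alternatives 7.65e-10 to 0.561). The opposite strand holds the start of TEDDM2, a gene with 0 to 10 counts per library.

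GLUD1, the mitochondrial dehydrogenase that turns glutamate into 2-oxoglutarate, moved less (chr14:34310727-34345265, forward strand). It stood at 438 and 396 CPM in WT control, 350 and 374 in WT TGF-β, 457 and 422 in KO control and 370 and 394 in KO TGF-β. The TGF-β libraries lay below the control libraries in each genotype, by a small margin. Its log2 fold change was -0.20 in both genotypes (SE 0.08 in each), which did not pass the test in WT (adjusted p = 0.0807) or in KO (adjusted p = 0.0881).

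SLC38A3, through which glutamine leaves the astrocyte, showed no difference beyond the spread between libraries (chr9:107650634-107669530, reverse strand). It stood at 96.2 and 86.5 CPM in WT control, 76.7 and 106 in WT TGF-β, 97.8 and 75.2 in KO control and 79.0 and 102 in KO TGF-β. The groups overlapped in both genotypes. Its log2 fold change was 0.00 in WT (95% interval -0.43 to 0.43) and 0.06 in KO (-0.37 to 0.50), and since the second interval reaches 0.50 a moderate change of SLC38A3 could not be seen with 2 libraries a group.

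SLC1A4 was the only one of the 8 genes that was up-regulated, and it was so in both genotypes (chr11:20302180-20332713, reverse strand). It stood at 74.7 and 79.6 CPM in WT control and 160 and 183 in WT TGF-β, and at 76.2 and 73.1 CPM in KO control and 173 in both libraries of KO TGF-β. The control libraries of both genotypes lay together, and so did the TGF-β libraries. TGF-β raised it on the log2 scale by 1.15 in WT (SE 0.08, adjusted p = 0.000122), a fold of 2.22, and 1.21 in KO (SE 0.08, adjusted p = 0.000129), a fold of 2.31. This call held under all 21 alternatives in each genotype. The FPKM ratio of SLC1A4 to SLC1A2 lay between 1.15 and 1.65 in the control libraries and between 4.65 and 5.99 in the TGF-β libraries.

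**Figure D3:**
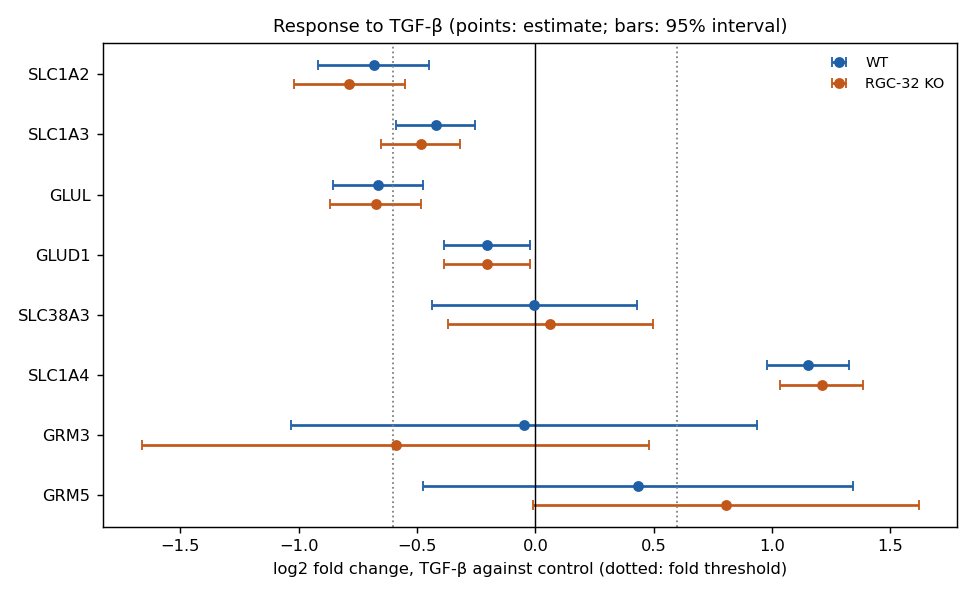
Log2 fold change with TGF-β against control for each of the 8 genes in WT and KO astrocytes, as points with 95% intervals, where dotted lines mark the fold threshold of 0.6. SLC1A2, SLC1A3 and GLUL lie left of 0 with intervals clear of 0, SLC1A4 lies at 1.15 and 1.21, and the intervals of GRM3 and GRM5 are the widest.

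SLC1A4, together with several genes of amino acid supply described below, is a known target of ATF4, a transcription factor of the amino acid response that binds the C/EBP-ATF response element. The promoters of RefSeq (GRCm38.p6), taken from 250 bases before to 50 after each start, were searched on both strands for this element written as TGATGNAAN. A promoter was found for 6 of the 8 genes, all but GRM5 and SLC38A3, and only that of SLC1A4 held the motif. Among the other glutamate pathway genes 4 of 53 with a promoter held it in any of their promoters (ASNS, GOT1, GRM7 and SLC7A11). Of all 32851 promoters searched 3.95% held it, a share counted by promoter and not by gene. The motif was chosen after the values were seen. The stretches of 30 bases around the motif are shown for SLC1A4 and for the 2 of the other genes that passed the threshold with TGF-β, read 5′ to 3′ on the strand of the gene, with the motif or its reverse complement in capitals.
SLC1A4 (chr11:20332699-20332728): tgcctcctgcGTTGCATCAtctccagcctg
ASNS (chr6:7693213-7693242): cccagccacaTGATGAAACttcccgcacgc
SLC7A11 (chr3:50443642-50443671): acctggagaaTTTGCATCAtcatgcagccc
SLC7A11 (chr3:50443660-50443689): ctcatgtggcTGATGCAAAcctggagaatt
All of these genes lie on the reverse strand. The motif begins at -5 from the start of SLC1A4, at -23 in ASNS, and at -48 and -66 in SLC7A11. SLC1A4 and ASNS rose with TGF-β in both genotypes and SLC7A11 fell in both. The genes of amino acid supply described below did not all rise either, since PSAT1 fell in both (-0.62 in WT and -0.63 in KO). GOT1 was under the fold threshold, at 0.41 in WT (adjusted p = 0.0203) and 0.27 in KO (adjusted p = 0.0937). A match of letters does not show that a factor binds there, and the part of ATF4 in these changes was not tested.

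The receptors were measured at low counts. GRM3, which couples to the inhibitory G protein of adenylate cyclase, had 15 and 20 counts in WT control, 11 and 24 in WT TGF-β, 18 and 18 in KO control and 12 and 10 in KO TGF-β (chr5:9485541-9725170, reverse strand). Its groups overlapped in WT, where the log2 fold change was -0.05 (95% interval -1.03 to 0.94, adjusted p = 0.942). In KO both TGF-β libraries were below both controls, and the value of -0.59 had an interval of -1.66 to 0.48 (adjusted p = 0.374). In limma on log2(FPKM + 0.1) it was -0.62 and past the threshold (adjusted p = 0.0452, over all alternatives 0.0452 to 1).

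GRM5, which couples through Gq to calcium release and is the receptor of immature astrocytes, had 8 and 9 counts in WT control, 10 and 14 in WT TGF-β, 9 and 12 in KO control and 15 and 19 in KO TGF-β (chr7:87584168-88134907, forward strand). The counts of the TGF-β libraries lay above those of the control libraries in each genotype. Its log2 fold change was 0.43 in WT (interval -0.47 to 1.34, adjusted p = 0.469) and 0.80 in KO (-0.01 to 1.62, adjusted p = 0.126). Without 1 library the value in WT ran from 0.053 to 0.76. Neither receptor passed the threshold in edgeR. The filter on low counts required about 0.631 CPM in at least 2 libraries, which GRM3 met in 7 of 8 libraries and GRM5 in 4 of 8. Of these 4 libraries 2 were those of KO TGF-β, where GRM5 was highest.

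The next question was whether the 8 genes differed between the genotypes. None was past the threshold in edgeR, either without TGF-β, where 0.037% of all genes (5 genes) were, or with it, where 0.0444% (6 genes) were. DESeq2 and limma-voom also called 0 of the 8, and at an unadjusted p under 0.05 there were 2 of the 8 without TGF-β and 1 with it, beside 924 and 1576 of all 13509 genes. SLC1A3 was higher in both KO control libraries than in both WT control libraries, with a log2 difference of 0.32 (SE 0.07, unadjusted p = 0.00201, adjusted p = 0.402), and the same held with TGF-β, at 0.26 (SE 0.07, unadjusted p = 0.00675, adjusted p = 0.242). SLC1A2 showed 0.28 without TGF-β (SE 0.10, unadjusted p = 0.024, adjusted p = 0.675), also with no overlap, and 0.18 with TGF-β (SE 0.10, adjusted p = 0.555). Over the other 6 genes the log2 difference between KO and WT ran from -0.08 (SLC38A3) to 0.29 (GRM5) without TGF-β and from -0.51 (GRM3) to 0.66 (GRM5) with it.

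**Figure D4:**
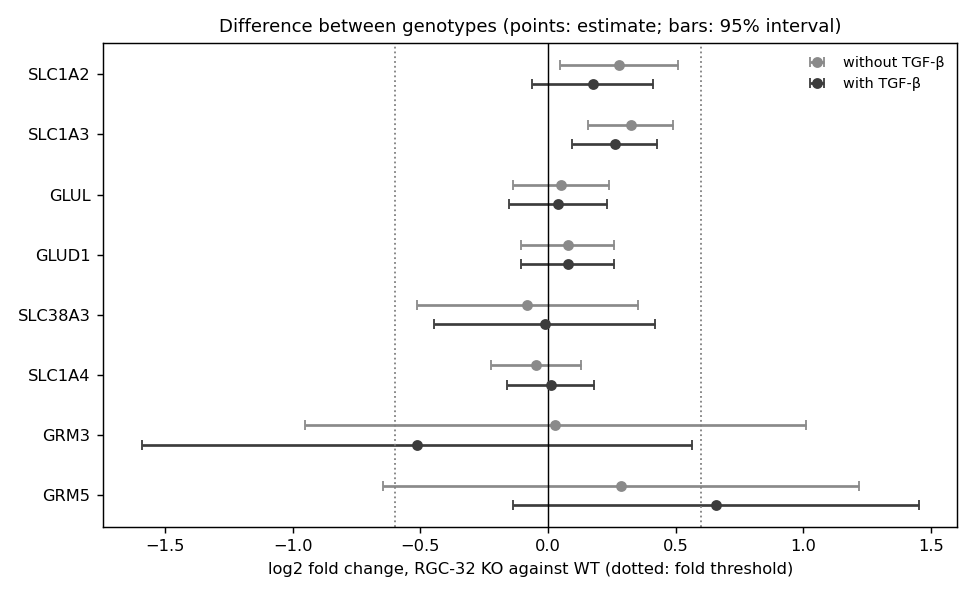
Log2 difference of KO against WT astrocytes for each of the 8 genes, without and with TGF-β, as points with 95% intervals, where dotted lines mark the fold threshold of 0.6. SLC1A3 lies above 0 in both states (0.32 and 0.26) and GLUL, GLUD1 and SLC1A4 lie close to 0.

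Whether the response to TGF-β itself depended on RGC-32 was tested by the interaction term, the log2 fold change in KO minus that in WT. For SLC1A2 it was -0.10 (95% interval -0.43 to 0.23), for SLC1A3 -0.06 (-0.30 to 0.17), for SLC1A4 0.06 (-0.19 to 0.30) and for GLUL -0.01 (-0.28 to 0.26), each with an adjusted p of 1. At an unadjusted p under 0.05 there were 0 of the 8 genes, and over all genes the share with an adjusted p under 0.05 was 0%, with 381 genes at an unadjusted p under 0.05. The intervals were wider for SLC38A3 (-0.54 to 0.68), GRM3 (-2.00 to 0.92) and GRM5 (-0.87 to 1.61).

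Markers of cell types moved with these groups. The summed level of the 10 astrocyte markers lay between 7810 and 8400 CPM in WT control and 6140 and 6370 in WT TGF-β, and between 9330 and 9730 in KO control and 7280 and 8120 in KO TGF-β. APOE and GFAP made up most of this sum. The sum was thus lower with TGF-β and higher in KO, in the same directions as SLC1A2 and SLC1A3. Single markers varied in how far they differed between the genotypes. Without TGF-β, S100B, AQP4, ALDOC, GJA1 and GJB6 overlapped between KO and WT. With TGF-β, SOX9, FGFR3, GJA1 and GJB6 overlapped, and GFAP, S100B, AQP4, ALDH1L1, ALDOC and APOE were higher in both KO libraries. GFAP was higher in KO by 0.46 on the log2 scale without TGF-β and 0.57 with it. GJA1 alone was lower in KO in both states (-0.02 and -0.03). No single marker had an adjusted p under 0.05 for KO against WT, without or with TGF-β. Of the 10 markers 1 was down-regulated past the threshold in each genotype, the connexin GJB6 (log2 fold change -2.64 in WT and -2.36 in KO). Over all genes 5.65% in WT and 4.93% in KO were down-regulated. At an adjusted p under 0.05 regardless of fold 6 fell in WT and 5 in KO, beside 14.3% and 11.8% of all genes. GJA1 alone rose at that limit in each genotype, beside 2514 genes in WT and 2243 in KO of all 13509. The median log2 fold change of the markers was -0.36 in WT and -0.32 in KO. In bulk samples fewer cells of a type and less RNA per cell cannot be told apart, and the part of these markers in the results for SLC1A2, SLC1A3 and GLUL was not tested.

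The summed level of the meningeal fibroblast markers, of which 9 of 10 were in the table, lay between 3870 and 4630 CPM in WT control, 7770 and 8940 in WT TGF-β, 3010 and 3200 in KO control and 5790 and 5940 in KO TGF-β. The collagens COL1A1 and COL1A2 made up most of it, and COL1A1 went from 1606 and 1786 CPM to 3807 and 4627 in WT, and PDGFRB and CRABP2 were also higher in every TGF-β library than in every control library of the same genotype. DCN, OGN and FOXC1 of the same list were lower in every TGF-β library. The sum of the oligodendrocyte lineage markers lay between 221 and 266 CPM in the control libraries and 374 and 545 in the TGF-β libraries, and CSPG4 (NG2) made up the difference, from 24.2 to 38.5 CPM in controls to 153 to 302 with TGF-β. Summed endothelial markers went from between 99.3 and 127 CPM in controls to between 66.9 and 80 with TGF-β. CDH5 and KDR of that list were lower in every TGF-β library than in every control library of the same genotype. FLT1 was higher (6.19 and 4.78 against 11.2 and 12.9 CPM in WT, 5.87 and 8.11 against 11.1 and 10.6 in KO). Summed ependymal markers went from between 372 and 447 CPM to between 242 and 297. The sum of the microglia or macrophage markers overlapped between control and TGF-β in WT (1070 to 1430 CPM). In KO this sum was lower with TGF-β (1090 to 1210 against 1250 to 1360). Its members differed, since CSF1R, ITGAM and P2RY12 overlapped in KO. TMEM119 was higher with TGF-β (39.1 and 43.6 against 79.6 and 85.0 CPM in WT, 49.1 and 36.1 against 66.7 and 69.6 in KO). The sum of the proliferation markers also overlapped in WT and was lower with TGF-β in KO (276 to 309 against 323 to 354). The sum of the neuronal markers, at 104 to 142 CPM and mostly STMN2, overlapped in both genotypes. Within that list TUBB3 was higher with TGF-β (16.8 and 18.6 against 35.8 and 34.1 CPM in WT, 15.1 and 20.5 against 33.6 and 35.0 in KO), and NEFM and SYP were lower in every TGF-β library than in every control library of the same genotype. The part of these markers in the results was not tested.

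The wider glutamate pathway was taken as 76 further genes in 9 lists, of which 65 were in the count table and 63 were tested. In WT astrocytes 6 of the 63 were up-regulated and 7 were down-regulated by TGF-β, and in KO 6 and 8. Over all genes these shares were 7.72% and 5.65% in WT and 6.61% and 4.93% in KO. The medians of -0.03 in WT and 0.02 in KO were close to those of all genes. Between the genotypes edgeR called 0 of the 63 without TGF-β and 0 with it (8 and 11 had an unadjusted p under 0.05, beside 924 and 1576 of all 13509 genes). Limma-voom also called 0 in both, and DESeq2 called 0 without TGF-β and 1 with it, GRIA1, named after its value was seen (0.68 higher in KO, DESeq2 adjusted p = 0.0216, edgeR adjusted p = 0.206). Since no gene passed the interaction test, a gene called in 1 genotype below is not shown to respond differently in the other.

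**Figure D5:**
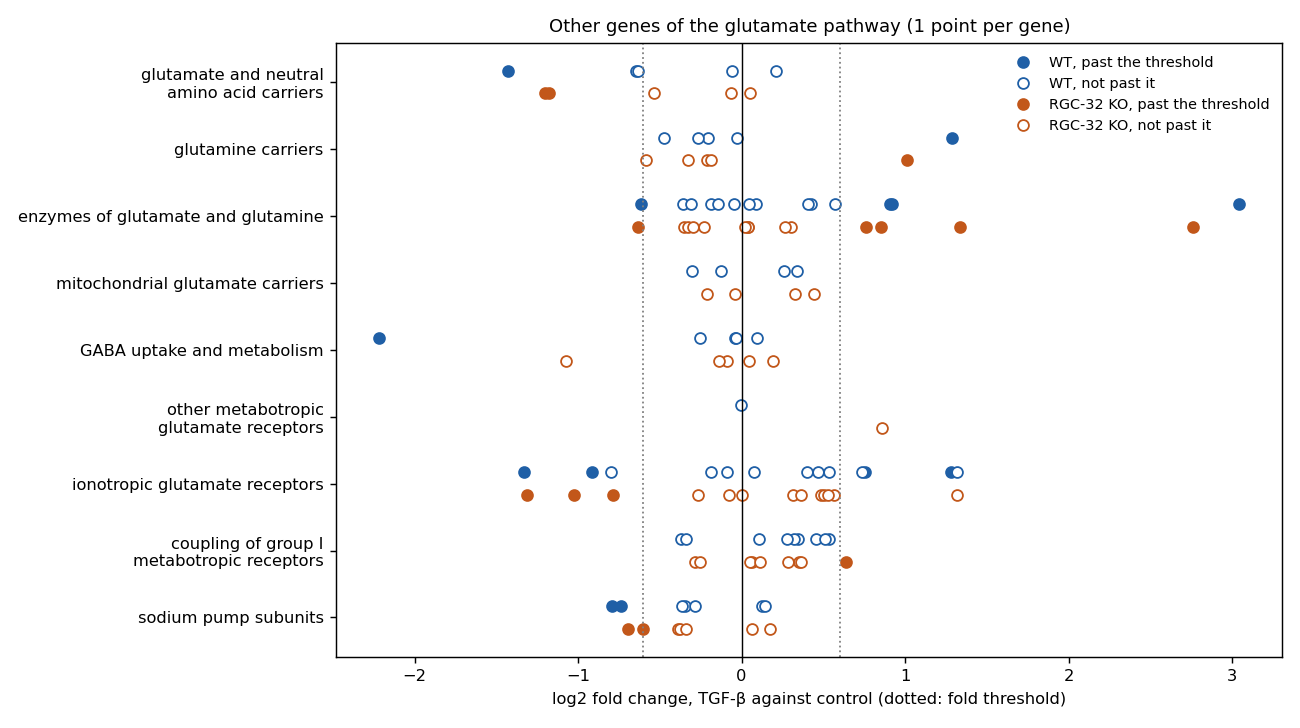
Log2 fold change with TGF-β against control of the 63 other glutamate pathway genes by list, with 1 point per gene and genotype, filled where the gene was past the threshold and with dotted lines at the fold threshold of 0.6. BCAT1 is the highest point (3.05 in WT, 2.76 in KO), SLC6A11 in WT the lowest (-2.22).

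Among 5 tested carriers of glutamate and neutral amino acids at the plasma membrane, SLC7A11 fell in both genotypes. SLC7A11 is the light chain of the exchanger that releases glutamate from astrocytes in return for cystine. It stood at 158 ± 54.8 CPM (SD, n = 2) in WT control and 58.8 ± 10.1 in WT TGF-β (log2 fold change -1.43, adjusted p = 0.00605), and at 125 ± 16.4 and 55.3 ± 16.4 CPM in KO (-1.18, adjusted p = 0.0157). SLC1A1, the neuronal carrier EAAT3, was near the limit of detection, with 11 to 20 counts in the WT libraries and 16 to 50 in the KO libraries. It fell in KO (-1.21, adjusted p = 0.0141), and its value in WT was -0.65 (adjusted p = 0.155).

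Of the 5 tested glutamine carriers other than SLC38A3, 1 rose, SLC7A5 (LAT1), the exchanger that trades glutamine for large neutral amino acids. It went from 56.9 ± 6.40 CPM in WT control to 139 ± 38.8 in WT TGF-β (log2 fold change 1.29, adjusted p = 0.00474) and from 55.4 ± 12.8 to 111 ± 21.0 in KO (1.01, adjusted p = 0.0149). The sodium-coupled carriers SLC38A1 and SLC38A2 stood at 277 ± 16.5 and 173 ± 0.608 CPM in WT control and at 199 ± 4.26 and 150 ± 0.249 in WT TGF-β, and were not past the fold threshold.

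Of the 14 tested enzymes, BCAT1, ALDH18A1 and ASNS rose and PSAT1 fell in both genotypes. BCAT1, the cytosolic transaminase that makes glutamate from branched-chain amino acids, had 67 and 63 counts in WT control, 503 and 610 in WT TGF-β, 72 and 41 in KO control and 322 and 388 in KO TGF-β. All TGF-β libraries lay far above all controls, and the log2 fold change in WT was 3.05 (SE 0.27, adjusted p = 0.000281) and 2.76 in KO (SE 0.28, adjusted p = 0.000563). ALDH18A1, which turns glutamate toward proline, rose by 0.92 in WT (adjusted p = 0.000382) and 0.85 in KO (adjusted p = 0.000656) on the log2 scale. ASNS, which makes asparagine and releases glutamate from glutamine, rose by 0.91 (adjusted p = 0.00106) and 0.76 (adjusted p = 0.00284). PSAT1, the transaminase of serine synthesis, fell by 0.62 (adjusted p = 0.00105) and 0.63 (adjusted p = 0.00114). The 4th enzyme up-regulated in KO was the glutaminase GLS2 (1.34, adjusted p = 0.0165), at 0.701 ± 0.180 CPM in KO control and 1.80 ± 0.264 in KO TGF-β, which was named after its value was seen.

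None of the 4 mitochondrial glutamate carriers passed the threshold in either genotype. SLC25A18, the glutamate carrier GC2, had the highest level, at 130 ± 2.18 CPM in control and 156 ± 3.40 with TGF-β in WT, and 149 ± 20.4 and 203 ± 1.02 in KO. SLC25A12, the aspartate-glutamate carrier, stood at 63.1 ± 0.249, 51.2 ± 0.321, 63.0 ± 1.99 and 54.4 ± 0.640 CPM in the same order. In the GABA list 1 of 5 tested genes fell in WT, the astrocytic carrier SLC6A11 (GAT3), with 11 and 21 counts in control and 6 and 1 with TGF-β (-2.22, adjusted p = 0.0236). In KO its value was -1.08 (adjusted p = 0.162). The GABA transaminase ABAT stood at 196 ± 2.89 CPM in WT control and 190 ± 3.68 in WT TGF-β, and ALDH5A1, the next enzyme of that route, at 37.1 ± 0.365 and 36.3 ± 1.13.

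Among the other metabotropic receptors only GRM8 was in the count table, with 11 to 33 counts per library, and it was not past the threshold. Of 13 ionotropic receptor subunits tested, 2 rose and 2 fell in WT and 3 fell in KO. GRIN3A, an NMDA receptor subunit that lowers calcium flow, fell in WT (-1.33, adjusted p = 0.00112) and in KO (-1.02, adjusted p = 0.00387). GRIA1, an AMPA receptor subunit, fell in both as well, from 35.3 ± 6.49 to 18.7 ± 1.26 CPM in WT (-0.91, adjusted p = 0.00491) and from 51.8 ± 8.46 to 30.1 ± 3.55 in KO (-0.79, adjusted p = 0.00881). The kainate receptor subunit GRIK3, with 15 to 121 counts per library, fell in KO (-1.31, adjusted p = 0.0224), with -0.80 in WT (adjusted p = 0.145). The obligatory NMDA receptor subunit GRIN1, at a low 15 to 43 counts per library, rose in WT (1.28, adjusted p = 0.0119), with 0.50 in KO (adjusted p = 0.198). GRIA2, named after its value was seen, rose in WT (0.76, adjusted p = 0.00473), with 0.32 in KO (adjusted p = 0.109).

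Of the 9 tested genes that couple group I receptors such as GRM5 to calcium release, 1 passed the threshold, the scaffold HOMER1, with 0.64 in KO (adjusted p = 0.00523) and 0.53 in WT (adjusted p = 0.00841), the latter under the fold threshold. The G protein subunits GNAQ and GNA11 stood at 152 ± 6.06 and 108 ± 4.07 CPM in WT control and at 208 ± 14.5 and 117 ± 3.53 in WT TGF-β. The sodium pump builds the gradient that drives SLC1A2 and SLC1A3, and 2 of its 7 listed subunits and regulators fell in both genotypes. ATP1B1, a beta subunit, fell by 0.79 in WT (adjusted p = 0.00028) and 0.69 in KO (adjusted p = 0.00053) on the log2 scale. FXYD1, which regulates the pump, fell by 0.74 (adjusted p = 0.000656) and 0.60 (adjusted p = 0.00177).

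Several of these calls ended when 1 library was left out. In WT 10 of the 13 calls held whichever library was left out, and those of PSAT1, SLC6A11 and GRIN1 did not, for example GRIN1 at 1.08 without WT control replicate 2 and at 1.19 without WT TGF-β replicate 2, SLC6A11 at -1.76 and -1.57 without the same libraries, and PSAT1 at -0.57 and -0.55 without WT control replicate 2 and WT TGF-β replicate 1. In KO 5 of the 14 calls held, those of BCAT1, ALDH18A1, ASNS, GRIN3A and ATP1B1. Without KO control replicate 1 the calls of SLC7A11 (-1.06), HOMER1 (0.51) and GLS2 (1.09) ended, by the adjusted p or by the fold. Without KO control replicate 2 those of SLC1A1 (-0.94), SLC7A5 (0.79), PSAT1 (-0.57), GRIA1 (-0.61), GRIK3 (-0.98) and FXYD1 (-0.57) did. Without KO TGF-β replicate 1 those of SLC7A11 (-0.90), SLC1A1 (-1.17), PSAT1 (-0.59), GRIK3 (-1.17), HOMER1 (0.58) and FXYD1 (-0.51) ended, and without KO TGF-β replicate 2 those of SLC1A1 (-1.26), SLC7A5 (0.78), GRIA1 (-0.69), GRIK3 (-1.49) and GLS2 (1.16). The fold of SLC1A1 and GRIK3 was no smaller without this last library, and only the adjusted p missed the threshold. In WT 2 genes were called only when a library was left out, GRIK3 at -1.51 without WT TGF-β replicate 1 (between -1.51 and -0.37 over the libraries left out) and HOMER1 at 0.60 without WT control replicate 2. The number of down-regulated genes in KO went from 8 to 3 without KO control replicate 2 and to 3 without KO TGF-β replicate 1. DESeq2 did not call SLC6A11 and GRIN1 in WT, nor SLC1A1 and GLS2 in KO.

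For each of the 8 genes the 2 genes with the most similar course over the 8 libraries were sought, by the root mean square difference of log2 CPM after each gene was centred on its own mean, among genes of at least 10 CPM on average. The 8 libraries share their 4 groups, and the values are descriptions. Nearest to SLC1A2 were SORD (0.0628), sorbitol dehydrogenase, and CASKIN1 (0.092), and nearest to SLC1A3 were the adenosine receptor ADORA1 (0.0569) and MYBPH (0.057). SLC1A4 was closest to the angiogenic growth factor VEGFA (0.065) and to PDGFRL (0.0688), and GLUL to PGRMC1 (0.0419), a haem-binding membrane protein, and NCKAP5 (0.0511). VEGFA rose with TGF-β by 1.15 in WT and 1.08 in KO on the log2 scale, beside 1.15 and 1.21 for SLC1A4. GLUD1 was closest to TMEM206 (0.0329) and NFU1 (0.0336), and SLC38A3 to the transcription factor OLIG1 (0.0907) and to RPL22L1 (0.092). The receptors had no near neighbour at their low counts, with RARB (0.188) and IGFBP6 (0.222) nearest to GRM3 and ITIH3 (0.186) and FJX1 (0.19) nearest to GRM5.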

How the data were processed

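RNA from 8 astrocyte libraries (2 in each of 4 groups, from the deposited labels) was sequenced without strand information. Alignment by the authors used STAR, run within VIPER, on mm10 (tool and build as in the submitters' processing notes), and the authors deposited whole-number counts per gene, not normalized. The counting program and annotation are not given in the sources used here. The authors also deposited FPKM values from Cufflinks for 18644 genes, used here for levels between genes and as an alternative. The deposited tables of the authors' own comparisons (log2 fold changes, p-values and annotation) were not used. Repeated or date-like names (21) were kept as they were.

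The tests used edgeR 4.0.16 (R 4.3.3): filterByExpr, TMM normalization, and a quasi-likelihood fit of 4 group means over all 8 libraries. Two-sided p-values were adjusted over the 13509 genes by the Benjamini-Hochberg method, and the threshold was a log2 fold change of 0.6 or more in size at an adjusted p under 0.05. SE was derived from the test statistic. CPM uses the TMM-normalized total, with a prior count of 2 on the log2 scale. The procedure was tested on simulated data. Alternatives used DESeq2 1.42.0, limma 3.58.1 (voom, and Cufflinks values with pseudocounts of 0.1 and 1), other filters and scalings, a replicate block and leaving out each library. Libraries of the same replicate number deviated together between some groups and in opposite directions between others, so no pairing was assumed.

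Total counts ran from 14920561 to 18956038 per library (median 15857266), and the chi-square per degree of freedom between replicates from 6.26 to 10.4. The genes and lists were chosen with earlier results of these data known. At most 4 genes of a pathway list were named, those past the threshold with the largest change in WT, or the 2 of highest level where fewer than 2 passed, and others are marked as named after their values were seen. Gene positions are those of GENCODE release M21 (GRCm38), and promoters those of RefSeq.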

Additional observations from a re-analysis of the deposited data

How the results depend on the processing

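Of the 8 genes, SLC1A4 kept its call in both genotypes under all 21 alternatives. Bonferroni's correction left SLC1A4 alone, so 1 gene past the threshold in WT and 1 in KO in place of 3, and the Cufflinks values with a pseudocount of 0.1 gave 5 in KO, where SLC1A3 (-0.61) and GRM3 (-0.62) were added. SLC1A3 also passed in KO with a pseudocount of 1 (-0.61). With the pseudocount of 0.1 the median of all genes was -0.12 in WT and -0.13 in KO, so part of that shift is common to all genes. DESeq2, limma-voom, the other filters and RLE normalization left the calls of the 8 genes as they were. With the replicate number as a block the counts were 3, 3, 0, 0 and 0, the same as without it, and also with the numbers of the TGF-β libraries crossed, an alternative chosen after seeing the data. Same-numbered libraries deviated in opposite directions between control and TGF-β (correlations -0.278 in WT and -0.305 in KO) and together between WT and KO (0.566 in controls and 0.348 with TGF-β).

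Directions that changed were those of values near 0 or of low counts. Leaving out 1 library moved the TGF-β value of GRM3 in WT between -0.84 and 0.51 and of SLC38A3 from -0.27 to 0.22 in WT and -0.15 to 0.25 in KO. That of SLC38A3 in KO was -0.021 with upper quartile normalization, and -0.071 and -0.069 on Cufflinks values with pseudocounts of 0.1 and 1. Between KO and WT without TGF-β, GRM5 was -0.071 and -0.011 on the same Cufflinks values, and SLC38A3 ranged over -0.28 to 0.10. With TGF-β, GRM3 ranged over -1.07 to 0.28. The interaction ranged over -0.23 to 0.019 for SLC1A2, -0.13 to 0.0016 for SLC1A3, -0.055 to 0.16 for SLC1A4 and -0.11 to 0.087 for GLUL. The cause was not tested.

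Among the other pathway genes Bonferroni's correction left 1 higher and 1 lower in WT and 0 and 0 in KO, no fold threshold gave 16 and 12, and 13 and 13, and the Cufflinks values with a pseudocount of 1 gave 2 higher in KO. With 2 libraries a group, and 8 to 24 counts for GRM3 and GRM5, the intervals of the receptors are wide.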
